A study of Arabidopsis thaliana with 87 samples.

Results

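Always red plants that carried the pigment transgene RUBY behind ZmUBQ, the name the labels give to a maize ubiquitin promoter, were compared with always red plants that carried it behind 35S, the promoter of the cauliflower mosaic virus. The libraries were chosen by their labels alone, as Col-0 plants described as always red, though earlier results of these data were known. In all, 15 of the 87 libraries of the series qualified. Of these, 4 carried ZmUBQ::RUBY, 2 each from the transgenic events MK054 and MK056. The other 11 carried 35S::RUBY and came from 6 events, with 2 libraries each from MK016, MK034, MK042, MK044 and MK045 and 1 from MK010. All plants were Arabidopsis thaliana of the Col-0 background and carried RUBY, and leaf RNA was taken at 4 weeks of age after growth at 22 °C under an 18 h day and a 6 h night. A library is written here as its event and its label number, such as MK054-1. The comparison asks how transgene small RNA differs between promoters among plants with the same red colour label.

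RUBY encodes enzymes that turn tyrosine into betalain, a red pigment, so a red leaf is one in which the transgene is active. Plants silence transgenes through small RNAs cut from double-stranded RNA by DICER-LIKE enzymes, and the length of a small RNA reflects the enzyme: DCL4 makes 21 nt, DCL2 makes 22 nt and DCL3 makes 24 nt small RNAs. The 21 and 22 nt forms guide the cleavage or translational block of messenger RNA, while the 24 nt forms guide DNA methylation. Because Dicer products come from double-stranded RNA they are found on both strands, whereas fragments of a decaying messenger RNA lie on its own strand and have no preferred length.

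Each library gave 22 values, the reads of the whole transgene at each length from 18 to 28 nt on each strand, as counts and as reads per 1000000 mapped reads (RPM). Mapped reads ranged from 10.8 to 19.5 M in the ZmUBQ libraries and from 12.3 to 29.7 M in the 35S libraries (1 M is 1000000 reads), and 3 reads corresponded to 0.101 to 0.277 RPM. MK034-2 listed no 27 nt minus strand read, which was taken as 0. The files do not say which strand is the sense strand. Reads were counted against a target named for 35S RUBY or for ZmUBQ RUBY, the ZmUBQ libraries carry numbered library names that the 35S libraries lack, and only 2 ZmUBQ events were sampled. The promoter, the target sequence, the set of libraries and the 2 insertions therefore cannot be told apart in any difference given here. The labels number the libraries as replicates without saying whether each is a separate plant, so the p-values refer to the spread among libraries, which may be technical in part.

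ZmUBQ always red plants held less transgene small RNA than 35S always red plants. The total was 136 and 254 RPM in MK054-1 and MK054-2 and 219 and 343 RPM in MK056-2 and MK056-4. In the 35S libraries it ranged from 147 RPM in MK034-2 to 717 RPM in MK016-2, with a median of 447 RPM. Only MK054-1 lay below every 35S library, so the groups overlapped. The means were 238 ± 85.5 RPM (SD, n = 4) and 456 ± 151 RPM (SD, n = 11), a level 1.88-fold higher in 35S (interval 1.14 to 3.18, exact two-sided permutation test, adjusted p = 0.0234 over 4 values). This call was lost without MK054-1 and without MK054-2, where the log2 difference was -0.67 and -0.97.

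The lower total lay mainly on the plus strand. Plus strand reads were 2.09-fold higher in 35S (144 ± 50.7 against 309 ± 114 RPM; interval 1.25 to 3.57; exact permutation test, adjusted p = 0.0220). Minus strand reads were 94.3 ± 35.5 against 147 ± 44.0 RPM, a 1.54-fold difference with an interval of 0.943 to 2.58 that did not pass (adjusted p = 0.0828, exact permutation test). Minus strand reads made up 39.8%, 42.0%, 36.2% and 39.9% of all transgene reads in MK054-1, MK054-2, MK056-2 and MK056-4. In 35S they made up 24.1% to 38.0%, with a median of 32.1%, and 3 of the 4 ZmUBQ libraries lay above all of these. The mean difference was 6.88 percentage points (interval 1.90 to 11.9, exact permutation test, adjusted p = 0.0220). The calls for the plus strand and for the minus strand share were also lost without MK054-1 and without MK054-2. The minus strand difference passed without 35S MK034-2, at a log2 difference of -0.79, and without ZmUBQ MK056-4, at -0.83.

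Behind the lower total, some minus strand lengths were higher in ZmUBQ while most other classes were lower. By edgeR's quasi-likelihood test, 16 of the 22 length and strand classes differed, which is 72.7% of those tested. ZmUBQ was lower in 12 (54.5%), namely every plus strand length except 24 nt together with 21 and 22 nt on the minus strand. ZmUBQ was higher in 4 (18.2%), namely 23, 24, 25 and 28 nt on the minus strand. The groups did not overlap in 3 of the 22 classes (13.6%), and these were 23, 24 and 25 nt on the minus strand. Libraries of 1 event share an insertion, and with 1 mean per event, 2 against 6, 0 of 22 classes passed in the exact permutation test (8 at an unadjusted p under 0.05, lowest adjusted p = 0.0982). That setting has 28 relabellings and no raw p below 0.0357, so few classes could pass after adjustment whatever their difference. limma with the event as a random block called 14 of 22 (63.6%), without 23 nt plus (adjusted p = 0.0584) and 28 nt minus (adjusted p = 0.310).

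**Figure D1:**
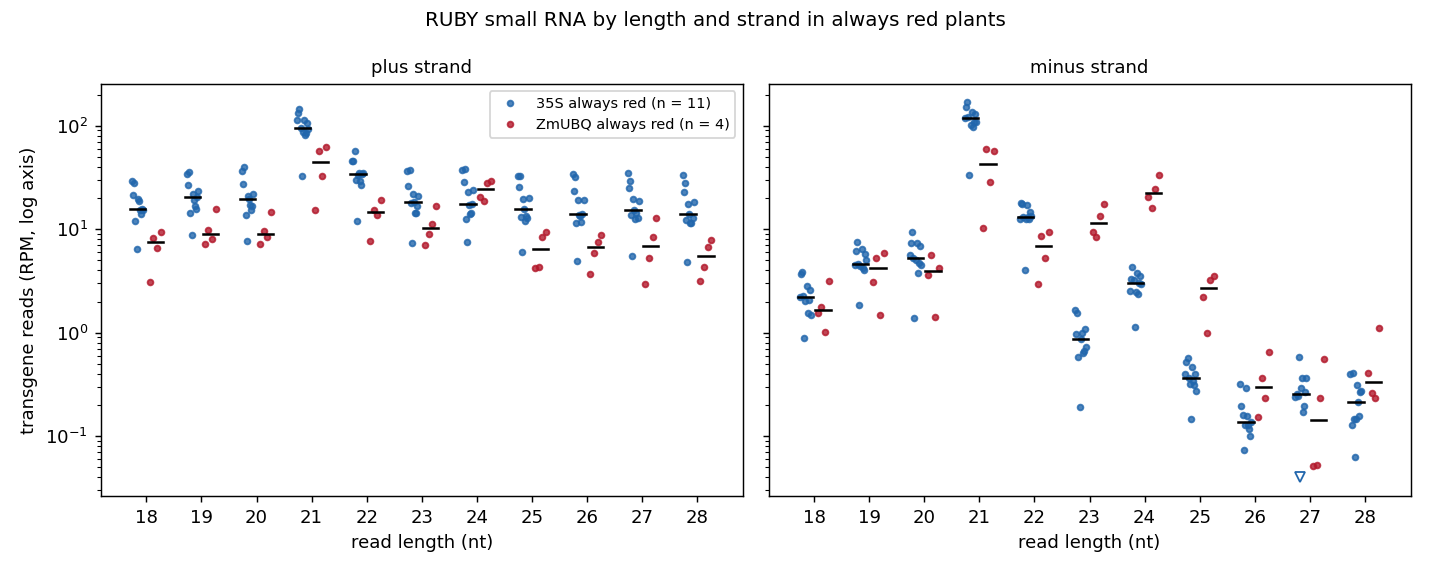
RUBY small RNA in RPM (log axis) by read length, with the plus strand on the left and the minus strand on the right; each point is a library of always red plants, black bars are group medians, and the open triangle marks the 35S library with 0 reads. On the plus strand the ZmUBQ points (red) lie lower than most 35S points (blue) at every length but 24 nt, and on the minus strand they lie above all 35S points at 23, 24 and 25 nt.

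The 24 nt minus strand class, the size of small RNAs that guide DNA methylation, was one of these 3. It stood at 20.7 RPM in MK054-1, 15.9 RPM in MK054-2, 24.3 RPM in MK056-2 and 33.4 RPM in MK056-4. The 35S libraries ranged from 1.15 RPM in MK034-2 to 4.30 RPM in MK016-2, with a median of 3.04 RPM. The lowest ZmUBQ library was thus several times above the highest 35S library, on 304 to 403 reads per ZmUBQ library and 18 to 104 reads per 35S library. The mean was 23.6 ± 7.41 RPM (SD, n = 4) against 2.96 ± 0.837 RPM (SD, n = 11), a 7.96-fold higher level (log2 2.99 ± 0.33 SE; edgeR adjusted p = 1.76e-16).

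The neighbouring 23 nt class on the minus strand had the largest fold difference of the 22 classes. It was at 9.30 and 8.47 RPM in MK054-1 and MK054-2 and at 13.4 and 17.4 RPM in MK056-2 and MK056-4. In 35S it was at 0.191 to 1.67 RPM, with a median of 0.872 RPM, and no library of one group reached the range of the other. This was 13.6-fold higher in ZmUBQ (log2 3.77 ± 0.34 SE; edgeR adjusted p = 2.95e-22), although the 35S side rested on only 3 to 32 reads per library. At 25 nt, ZmUBQ was at 0.993 to 3.51 RPM and 35S at 0.145 to 0.568 RPM, a 6.66-fold difference (log2 2.73 ± 0.38 SE; edgeR adjusted p = 6.98e-11), on 19 to 43 and on 3 to 12 reads. This last fold was 4.36 with the 2 MK056 libraries left out. On the log2(RPM + 1) scale, which compresses low values, limma with the event as a random block gave 6.74-fold for 23 nt and 2.42-fold for 25 nt. The edgeR fit pooled the spread of all 22 correlated classes, which makes its smallest p-values very small. An exact permutation test over libraries gave each of the 23, 24 and 25 nt classes an adjusted p = 0.00537, from a raw p of 0.000733, the smallest the relabellings allow.

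The remaining minus strand classes beyond 25 nt were rare. At 28 nt the ZmUBQ libraries held 3 to 12 reads and the 35S libraries 1 to 8, and the 2.12-fold higher level passed narrowly (edgeR adjusted p = 0.0405). That call was lost without any 1 of 6 of the 15 libraries, with a log2 difference of 0.45 without MK056-4 (edgeR adjusted p = 0.447), and in the exact permutation test (adjusted p = 0.0597). The 26 nt class held 3 to 7 and 1 to 6 reads and did not pass in edgeR (adjusted p = 0.0686), while the exact permutation test called it (adjusted p = 0.0312). The 27 nt class, at 1 to 6 and 0 to 8 reads, and the 18, 19 and 20 nt classes did not pass. For 18 to 20 nt the ZmUBQ means were 1.87, 3.95 and 3.74 RPM and the 35S means 2.32, 4.97 and 5.59 RPM.

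The 21 nt minus strand class, the DCL4 size and the most abundant class in 35S, was lower in ZmUBQ. It was at 10.2 RPM in MK054-1, 59.2 RPM in MK054-2, 28.6 RPM in MK056-2 and 57.5 RPM in MK056-4. The 35S libraries held 97.8 to 168 RPM apart from MK034-2 at 33.1 RPM, with a median of 118 RPM. The ZmUBQ values overlapped with that single 35S library alone. The level was 2.97-fold lower (log2 -1.57 ± 0.38 SE; edgeR adjusted p = 0.000251). The 2 libraries of MK054 differed from each other more than the events did, since the MK054 mean was 34.7 RPM and the MK056 mean 43.1 RPM. The 22 nt minus strand class, the DCL2 size, was 2.98 to 9.33 RPM in ZmUBQ and 4.08 to 17.8 RPM in 35S, 2.07-fold lower (log2 -1.05 ± 0.38 SE; edgeR adjusted p = 0.00950). Without MK054-1 this call was lost (log2 -0.80; edgeR adjusted p = 0.0668).

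On the plus strand the 21 nt class had the highest mean in both groups. It was at 15.5 and 56.6 RPM in MK054-1 and MK054-2, at 32.4 and 62.6 RPM in MK056-2 and MK056-4, and at 32.4 to 146 RPM in 35S, where the median was 94.7 RPM. It was 2.37-fold lower in ZmUBQ (log2 -1.25 ± 0.38 SE; edgeR adjusted p = 0.00212). The 22 nt class was at 7.71 to 19.2 RPM in ZmUBQ and at 12.1 to 56.9 RPM in 35S, 2.49-fold lower (edgeR adjusted p = 0.00149). The lengths outside the Dicer sizes were lower as well, by the most at 28 nt (5.51 ± 2.15 against 17.0 ± 8.25 RPM, 3.10-fold), 25 nt (2.83-fold) and 26 nt (2.76-fold). Over the 10 plus strand classes that were lower, the fold ran from 1.91 at 23 nt to 3.10 at 28 nt, with edgeR adjusted p-values from 0.000239 to 0.0192. The 23 nt plus strand call was lost without MK054-1 and without MK054-2. With both MK054 libraries left out, 0 of the 11 plus strand classes passed in edgeR. The 10 were then lower by 0.58 (23 nt) to 1.22 (28 nt) on the log2 scale, with 21 nt at -1.06 (edgeR adjusted p = 0.0632), tested on 2 ZmUBQ libraries.

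The 24 nt plus strand class was the exception. It was at 20.5, 18.9, 28.1 and 29.2 RPM in MK054-1, MK054-2, MK056-2 and MK056-4, inside the 35S range of 7.59 to 38.3 RPM, whose median was 17.5 RPM. The means of 24.2 ± 5.23 and 21.3 ± 10.1 RPM gave a log2 difference of 0.18 ± 0.35 SE that did not pass (edgeR adjusted p = 0.603). So 24 nt reads were higher in ZmUBQ on the minus strand over libraries, with no detected difference on the plus strand. With 1 mean per event the minus strand difference did not pass (raw p = 0.0357, adjusted p = 0.0982, exact permutation test), at the lowest raw p that setting allows.

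These levels depend on the mapped total of each library, whereas a ratio of 2 lengths on the same strand of 1 library does not. Of 22 such ratios, 10 lengths relative to 21 nt and 24 nt relative to 22 nt on each strand, 13 differed between the promoters (59.1% of those tested), and all 13 were higher in ZmUBQ. On the minus strand all 11 passed, and on the plus strand only the 2 ratios with 24 nt in the numerator did.

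On the minus strand, 24 nt reads numbered 204% of 21 nt reads in MK054-1, 26.8% in MK054-2, 85.0% in MK056-2 and 58.1% in MK056-4. In 35S they numbered 2.16% to 3.47%, with a median of 2.68%. Every ZmUBQ library stood far above a narrow 35S range, and in MK054-1 the 24 nt reads outnumbered the 21 nt reads. The ratio was 27.3-fold higher (log2 4.77, interval 4.03 to 5.50; exact permutation test, adjusted p = 0.00161, the smallest reached). For 23 nt relative to 21 nt the ZmUBQ libraries gave 91.4%, 14.3%, 46.9% and 30.3% in the same order, against 0.488% to 1.42% in 35S, a 48.3-fold difference (log2 5.59, interval 4.81 to 6.38). For 25 nt relative to 21 nt the range was 1.68% to 21.7% against 0.142% to 0.963%, which is 20.3-fold (log2 4.34, interval 3.23 to 5.49) and was 32.6-fold without MK054-2. Relative to 22 nt, 24 nt reads were at 185% to 695% in ZmUBQ and at 17.9% to 28.1% in 35S, a 17.0-fold difference. The DCL2 to DCL4 size ratio, 22 to 21 nt, moved far less, with 14.5% to 29.3% against 10.4% to 13.4% (1.61-fold; log2 0.69, interval 0.40 to 0.98). Groups did not overlap in any of these 5 ratios. The same was true of 18, 26 and 28 nt relative to 21 nt on the minus strand. It was also true of 24 nt relative to 21 and 22 nt on the plus strand. Each of these ratios had an adjusted p = 0.00161 in the exact permutation test.

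The other minus strand ratios to 21 nt were higher by 2.26-fold to 6.56-fold. The lowest of these was that of 20 nt, at a log2 difference of 1.17, which was 0.59 without MK054-1 (adjusted p = 0.0201, exact permutation test). The largest was that of 28 nt, at 0.441% to 4.04% against 0.0856% to 0.338%, on few reads. That of 27 nt passed at an adjusted p = 0.0459 (exact permutation test) and lost the call without any 1 of 12 of the 15 libraries; it was 2.42-fold, and 3.91-fold without MK054-2. All of these ratios share the 21 nt denominator, which was itself lower in ZmUBQ, so they are not separate measurements.

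**Figure D2:**
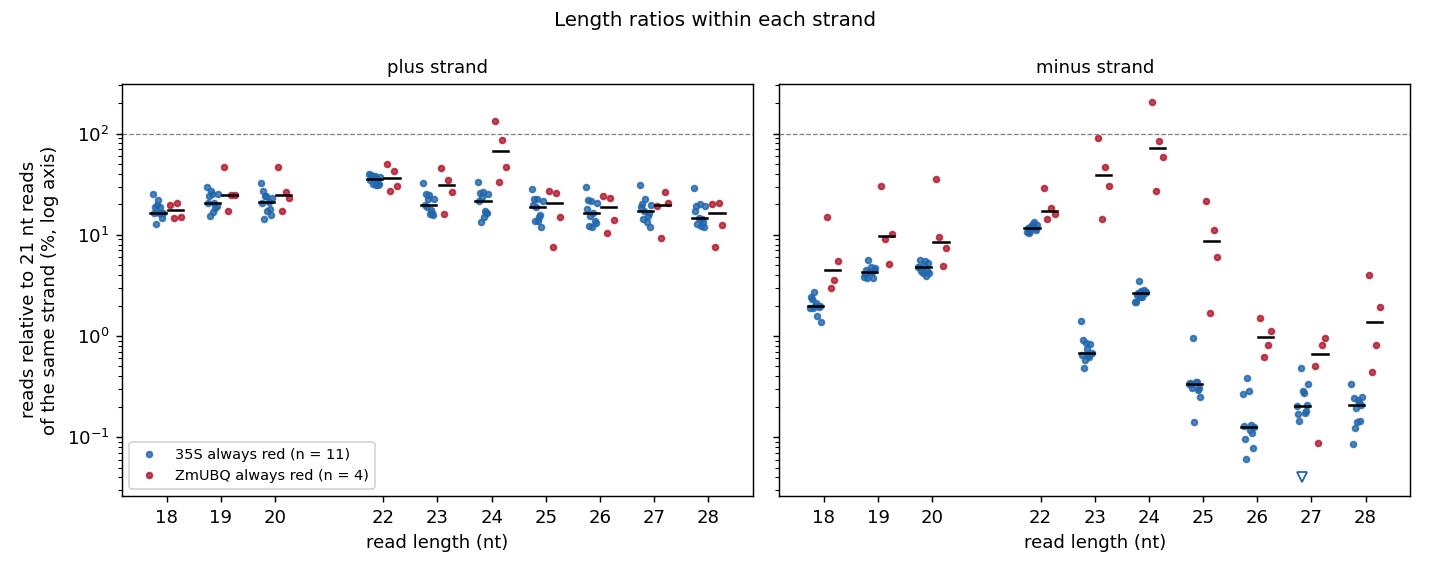
Reads of each length as a percentage of the 21 nt reads of the same strand and library (log axis), with the plus strand on the left and the minus strand on the right; points are libraries, black bars are group medians, the dashed line marks 100%, and the open triangle is a ratio of 0. The minus strand ratios at 23 and 24 nt are 14.3% to 204% in ZmUBQ (red) and 0.488% to 3.47% in 35S (blue).

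On the plus strand, 24 nt reads numbered 133%, 33.3%, 86.7% and 46.6% of 21 nt reads in MK054-1, MK054-2, MK056-2 and MK056-4, against 13.4% to 33.1% in 35S. The groups met at 33% without overlapping, and the ratio was 3.16-fold higher (log2 1.66, interval 0.96 to 2.37; exact permutation test, adjusted p = 0.00161). Relative to 22 nt, the same reads were at 123% to 266% against 42.3% to 82.8%, which is 3.04-fold higher. The other 9 plus strand ratios did not pass. The ratio of 22 to 21 nt, for example, was 27.1% to 49.8% in ZmUBQ and 30.9% to 40.0% in 35S (log2 0.06, interval -0.22 to 0.33; exact permutation test, adjusted p = 0.843). The 25, 26, 27 and 28 nt ratios had medians of 20.5%, 18.8%, 19.9% and 16.4% in ZmUBQ and of 18.7%, 16.5%, 17.1% and 14.8% in 35S. Their intervals together ran from -0.78 to 0.58 on the log2 scale, which bounds the differences these libraries do not reject.

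Expressed as shares of a strand, 11 of 22 shares differed (50% of those tested), 6 higher (27.3%) and 5 lower (22.7%) in ZmUBQ. Reads of 21 nt made up 18.8%, 55.6%, 36.0% and 42.0% of the minus strand in MK054-1, MK054-2, MK056-2 and MK056-4. In the 35S libraries they made up 76.7% to 79.95%, with an SD of 0.977 points over 11 libraries whose totals ran from 147 to 717 RPM. The minus strand of 35S plants was therefore close to uniform in length make-up, and that of ZmUBQ plants varied widely from library to library. The mean difference was -40.5 percentage points (interval -49.3 to -31.7; exact permutation test, adjusted p = 0.00269). In place of these, 24 nt reads made up 27.03 ± 9.84% of the ZmUBQ minus strand against 2.06 ± 0.267% in 35S, and 23 nt reads 13.7 ± 4.32% against 0.601 ± 0.201%. The 22 nt share of the minus strand was 6.76 ± 1.04% against 9.26 ± 0.693%, lower in all 4 ZmUBQ libraries than in any 35S library. On the plus strand, 24 nt reads made up 18.0 ± 5.60% against 6.75 ± 0.994% (difference 11.2 points, interval 7.72 to 14.7; exact permutation test, adjusted p = 0.00269). The 21 nt share of the plus strand was 27.7 ± 8.59% against 32.8 ± 4.62% and did not pass (adjusted p = 0.193, exact permutation test), though it did without MK054-2 (-8.73 points; adjusted p = 0.0403, exact permutation test).

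The strand balance of single lengths also separated the promoters. Of 11 lengths, the minus strand share differed at 8 (72.7% of those tested), higher in ZmUBQ at 7 (63.6%) and lower at 21 nt (9.09%). Of the 23 nt reads, 56.9%, 48.2%, 54.3% and 51.1% were on the minus strand in MK054-1, MK054-2, MK056-2 and MK056-4, against 2.54% to 5.99% in 35S. Reads of this length were thus about evenly split between strands in every ZmUBQ library and almost all on the plus strand in every 35S library. The difference was 48.5 percentage points (interval 46.1 to 50.9; exact permutation test, adjusted p = 0.00161). Of the 24 nt reads, 45.7% to 53.4% were on the minus strand in ZmUBQ and 6.35% to 20.4% in 35S, a difference of 35.5 points (interval 30.1 to 40.9). Of the 25 nt reads, the shares were 18.6% to 34.4% and 0.733% to 5.00%, a difference of 24.6 points (interval 20.8 to 28.7).

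Reads of 21 nt behaved differently. Their minus strand share was 39.7%, 51.1%, 46.9% and 47.9% in MK054-1, MK054-2, MK056-2 and MK056-4 and 50.5% to 56.0% in 35S, lower by 7.30 points on average (interval -10.7 to -3.97; exact permutation test, adjusted p = 0.00403). For 22 nt reads the shares of 31.1 ± 3.92% and 28.1 ± 3.51% did not pass (adjusted p = 0.201, exact permutation test). The 20 and 27 nt lengths did not pass either, and the call at 19 nt was lost without MK054-1, MK054-2 or MK056-4. With 1 mean per event, 2 events against 6, the same test called 8 lengths, at an adjusted p = 0.0491 each (exact permutation test). The 28 relabellings allow no raw p below 0.0357. The 24 nt minus strand level reached this same raw p, with an adjusted p = 0.0982 over 22 tests (exact permutation test). These calls therefore come from the smaller family of 11 tests and do not show a firmer result than the levels.

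**Figure D3:**
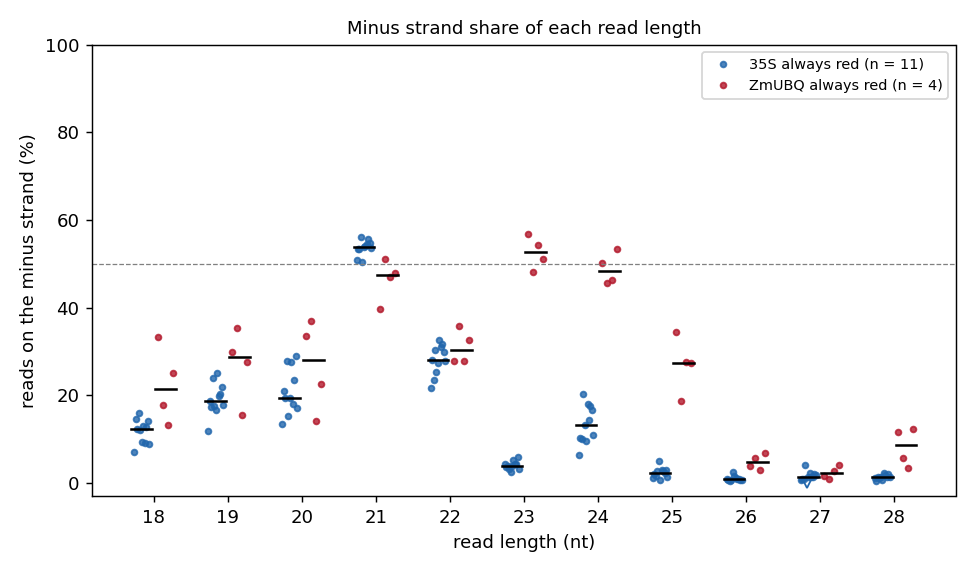
Share of reads of each length on the minus strand, in percent; points are libraries, black bars are group medians, the dashed line marks 50% and the open triangle is a share of 0. At 23 and 24 nt the ZmUBQ libraries (red) lie between 45.7% and 56.9% and the 35S libraries (blue) between 2.54% and 20.4%, while at 21 nt both groups lie near the dashed line.

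Reference levels from other groups of the series place these values. In dcl1234, whose name stands for lesions in all 4 Dicer genes of the plant and which here carried 35S::RUBY, the 8 always red libraries held 0.402 to 1.59 RPM of 24 nt minus strand reads and 5.31 to 7.13 RPM of 21 nt minus strand reads. The ZmUBQ always red libraries lay above both of these minus strand ranges. On the plus strand 24 nt reads went the other way, at 30.7 to 40.6 RPM in dcl1234 and 18.9 to 29.2 RPM in ZmUBQ. The plus strand ratio of 24 to 21 nt was 81.2% to 101% in dcl1234, inside the ZmUBQ range of 33.3% to 133%. On the minus strand this ratio was 6.25% to 25.8% in dcl1234. That lay above the 2.16% to 3.47% of the 35S always red libraries in Col-0 and just below the lowest ZmUBQ value of 26.8%. At 25 nt on the minus strand, dcl1234 held 0.666 to 2.87 RPM. This overlapped the ZmUBQ range of 0.993 to 3.51 RPM and lay above the highest 35S Col-0 value of 0.568 RPM. No ZmUBQ plants in dcl1234 were analysed here. In fully red leaves, a separate label, 24 nt minus strand reads stood at 9.38 to 35.6 RPM in the 7 ZmUBQ libraries, which contains 33.4 RPM and the other always red ZmUBQ values. In the 13 fully red 35S libraries they stood at 0 to 34.4 RPM, with a median of 4.47 RPM. Relative to 21 nt, they were at 12.2% to 121% in fully red ZmUBQ leaves and at 0% to 3.14% in fully red 35S leaves. The mapped reads of the fully red libraries are not given here, and whether a value of 0 reflects low depth was not tested. In fully green ZmUBQ leaves, where the 7 libraries held 37.9 to 299 RPM of 24 nt minus strand reads, the ratio to 21 nt was 2.07% to 4.10%. Differences between these groups and the always red plants were not tested apart from the promoter comparison that follows.

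**Figure D4:**
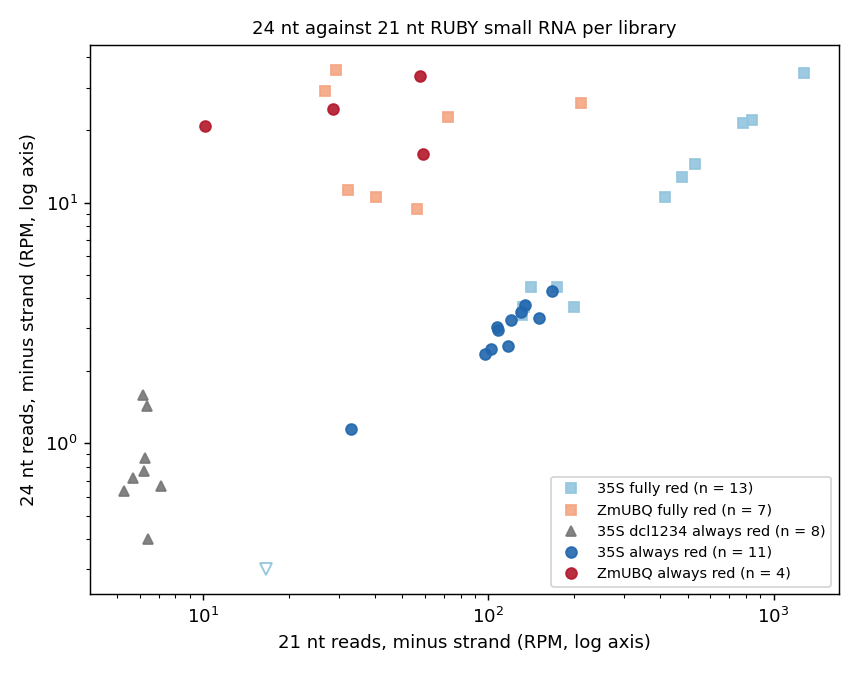
Minus strand 24 nt reads against minus strand 21 nt reads per library, in RPM on log axes, for always red plants of both promoters (circles), fully red leaves of both promoters (squares) and 35S always red plants in dcl1234 (triangles); the open triangle is a 35S fully red library with 0 reads of 24 nt. The 35S libraries in Col-0 lie along a band where 24 nt reads are at most 3.47% of 21 nt reads, and the ZmUBQ libraries lie above it, with 24 nt reads of 9.38 to 35.6 RPM.

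Whether the promoter difference was the same in always red plants and in fully red leaves was tested as an interaction in edgeR over all 4 groups. The colour classes came from partly different events. MK025, MK040, MK041, MK043 and MK055 gave fully red but no always red libraries, and MK010 and MK034 the reverse. The edgeR fit held no term for the event, so a change of the promoter difference cannot be told apart from a change of events. It differed in 7 of 22 classes (31.8%), all on the minus strand and all more positive in always red plants. For 24 nt minus strand reads, ZmUBQ minus 35S was 2.99 on the log2 scale in always red plants and 0.93 in fully red leaves (difference 2.07 ± 0.68 SE; edgeR adjusted p = 0.0194). The ZmUBQ means were close, 23.6 ± 7.41 RPM (SD, n = 4) and 20.6 ± 10.4 RPM (SD, n = 7), while the 35S means were 2.96 ± 0.837 RPM (SD, n = 11) and 10.7 ± 10.1 RPM (SD, n = 13). For 21 nt minus strand reads the promoter difference was -1.57 and -2.60, and its change did not pass (edgeR adjusted p = 0.274). All 7 calls were lost without ZmUBQ MK056-4, where the lowest adjusted p was 0.0654 (edgeR), and none passed in limma with the event as a random block.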

How the data were processed

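The authors deposited, for each library, the count of transgene reads per length and strand and the same values in RPM, per the file headers. The RPM values equal the deposited count divided by the mapped reads and multiplied by 1000000 on all 1904 lines checked, within a relative tolerance of 1e-06. Missing lines, 1 in these libraries, were set to 0. The submitters' processing notes name TAIR10. The aligner, trimming and treatment of multiply mapping reads are not given in the sources used here.

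Counts of 22 classes were tested with edgeR 4.0.16 (quasi-likelihood, library size = mapped reads, no scaling factor, no dispersion trend), and DESeq2 1.42.0 and limma 3.58.1 were alternatives. Totals on the log2(RPM + 1) scale, log2 ratios with 0.5 reads added, and percentages were compared by exact two-sided permutation over all relabellings of the libraries with scipy 1.17.1 and numpy 2.4.6. Percentages printed for ratios have no reads added. Strand shares needed 10 reads of a length. Adjustment was Benjamini-Hochberg within each family of 4, 22 or 11 tests, with a threshold of 0.05, and intervals hold the shifts not rejected at 0.05. Minus strand shares of single libraries have Wilson intervals at 95% confidence up to 3.72 points wide, which cover counting error only. Named values were the totals, strand totals, the 21, 22 and 24 nt classes and their ratios, and the 3 largest changes per strand of the rest. The remaining classes were described by counts and ranges, and 26 nt, 27 nt and 18 to 20 nt classes were added to account for all 22. The members and lists were chosen with earlier results of these data known. Of 61 pairs of libraries within groups, 1 pair of 35S libraries from different events, MK042-1 and MK045-2, had no detected difference beyond sampling noise (chi-squared test, p = 0.123). They were kept apart, and summed as 1 library in an alternative. The edgeR and permutation steps were tested on simulated data with independent values and no effect of the event. In these libraries limma estimated a correlation of 0.391 within events, so the simulations do not cover that dependence.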

Additional observations from a re-analysis of the deposited data

Results flagged for a closer look

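The promoter difference in minus strand reads, ZmUBQ minus 35S on the log2 scale, differed between always red plants and fully red leaves by edgeR's interaction test in 7 classes, always with a more positive value in always red plants. The change was 1.94 at 18 nt, 2.14 at 20 nt, 2.14 at 23 nt, 2.07 at 24 nt, 2.06 at 25 nt, 2.88 at 26 nt and 3.13 at 28 nt, with edgeR adjusted p-values from 0.00991 at 28 nt to 0.0473 at 18 and 20 nt. At 23 nt the promoter difference was 3.77 in always red plants and 1.63 in fully red leaves, and at 28 nt it was 1.08 and -2.01. None of the 7 passed in limma with the event as a random block (lowest adjusted p = 0.0929) or in edgeR without ZmUBQ MK056-4 (lowest adjusted p = 0.0654). The colour classes came from partly different events, which cannot be told apart from the change. The 26 and 28 nt classes rest on at most 12 reads in any always red library. Among 103 values of the 4 ZmUBQ libraries, 2 had a library far from the other 3, and chance alone gives about 1 in 20. On the minus strand, the ratio of 20 to 21 nt was 35.9% in MK054-1 against 4.90% to 9.53% in the others. The log2 ratio of 27 to 21 nt, with 0.5 reads added, was -9.56 in MK054-2, which held 1 read of 27 nt.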

How the results depend on the processing

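With 1 mean per event, 0 of 22 classes, 0 of 22 ratios and 0 of 22 shares passed in the exact permutation test, although 8, 13 and 9 had an unadjusted p under 0.05, and 28 relabellings bound what this setting can reach. In the same setting the log2 difference was -0.96 for the total and -1.12 for the plus strand, the minus strand share differed by 7.59 points, and none of the 3 passed. Without event MK054, 4 classes passed in edgeR (23, 24 and 25 nt minus higher, 21 nt minus lower), and the total at -0.64, the plus strand at -0.75 and the minus strand share at 5.49 points did not. Without event MK034 the minus strand passed at -0.79. Over 21 to 24 nt only, the minus strand share differed by 3.85 points and did not pass. The changes of the promoter difference passed in 0 classes with limma and the event as a random block (4 at an unadjusted p under 0.05) and in 3 of 19 classes with at least 10 reads in every library of a group. Leaving out each library in turn gave -1.11 to -0.67 for the total, -1.26 to -0.82 for the plus strand, -0.83 to -0.39 for the minus strand, 6.03 to 7.96 points for the minus strand share and 0 to 9 classes for the changed promoter difference. The sign changed for 24 nt plus strand reads without event MK056 (-0.11) and for the ratio of 22 to 21 nt on the plus strand when libraries were left out (-0.10 to 0.20), neither of which passed in any case. The cause of these changes was not tested. With the replicate number as a block, only numbers found in both groups were used, so MK056-4 was left out. In this setting 15 of 22 classes passed. The 28 nt minus class lost its call (log2 0.46), as it did when MK056-4 alone was left out (log2 0.45). The labels do not say that a shared number marks a shared batch or day. DESeq2 and the exact permutation test each called 16 classes, and limma with the event as a random block 14. Apart from the total, the strand totals and the minus strand share, 1085 values were recomputed for the 38 named classes, ratios and shares, of which 1025 kept direction and call, 55 lost the call, 2 gained it and 3 changed sign. The minus strand classes of 26 to 28 nt, at 12 reads or fewer, are limited by depth.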

Other observations

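The ratio of 23 to 24 nt reads, computed after the values were seen and given without a test, also differed between the promoters on the plus strand. It was 34.3%, 48.2%, 40.3% and 57.3% in MK054-1, MK054-2, MK056-2 and MK056-4, and 88.4% to 140% in the 35S always red libraries. In dcl1234 it was 88.2% to 106%. In fully red leaves the promoters overlapped, at 25.9% to 80.1% in ZmUBQ and 51.0% to 100% in 35S. On the minus strand the ratio was 44.9% to 55.1% in the 4 ZmUBQ always red libraries and 16.7% to 65.6% in 35S, where it rested on 3 to 32 reads of 23 nt.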
